A study of Mus musculus with 8 samples.

Results

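The genes described here are 9 components of extracellular nucleotide and lysophospholipid sensing in tumor-associated macrophages (TAMs): the purinergic receptors P2rx4, P2rx7, P2ry6, P2ry12, P2ry13 and P2ry14, the lysophosphatidylserine receptor gene Gpr34, the ectonucleotidase gene Entpd1 and the connexin gene Gja1. They were listed by name, with earlier results of these data in view, and make up 9 of the 23413 genes in the count matrix. Their fold changes are therefore given as a description, with no test of their own. The matrix names genes by symbol, and all 9 symbols had a row.

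The cells came from male C57BL/6 mice, 8 to 10 weeks old, that carried subcutaneous B16F10 melanoma, a mouse melanoma line grown in its own strain. Thiostrepton, a thiopeptide antibiotic, or DMSO, its control, was given on days 6 and 12 after engraftment, and the TAMs were sorted on day 18 as CD45+F4/80+CD11b+Gr-1- cells. RNA-seq covered 2 mice that received DMSO, 4 that received thiostrepton intraperitoneally (I.P.) and 2 that received it subcutaneously beside the tumor (S.C.), with 1 library per mouse. The S.C. dose was 20 mg/kg, whereas the I.P. dose of these particular mice and the injection route of the DMSO mice were not given in the sources used here. All 8 mice bore the tumor, so no tumor-free macrophages are among the samples, and dose and route cannot be told apart between the I.P. and S.C. mice.

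ATP, ADP, UTP and UDP leak from stressed or dying cells and act as danger signals. P2X receptors are cation channels opened by ATP, P2Y receptors are G protein-coupled receptors that sense ATP, ADP, UDP or UDP-sugars, and CD39, the product of Entpd1, ends the signal by cleaving ATP and ADP to AMP. GPR34 senses lysophosphatidylserine, a lipid shed from dying membranes, and connexin 43, the product of Gja1, forms gap junctions and hemichannels through which ATP can leave a cell.

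The members lie at a few loci of the mouse genome (mm10, gene spans from GENCODE vM21). P2ry14 (chr3:59113855-59153618), P2ry13 (chr3:59207892-59210882) and P2ry12 (chr3:59216272-59262871) sit side by side on the minus strand within 149 kb, and 5.39 kb separate P2ry13 from P2ry12. All 3 lie inside Med12l, a Mediator subunit gene on the opposite strand. P2rx7 (chr5:122643911-122691432) and P2rx4 (chr5:122707544-122729738) are neighbors on the plus strand, 16.1 kb apart. Gpr34 (chrX:13632089-13640858) is on the plus strand inside Cask, which runs on the minus strand. P2ry6 (chr7:100937630-100974649) is on the minus strand, 21.9 kb from the nearest edge of P2ry2. Entpd1 (chr19:40612366-40741602) and Gja1 (chr10:56377330-56402513) are on the plus strand. Whether the reads were counted by strand is not given in the sources used here, so for Gpr34 and the P2ry12 cluster the reads of the opposite gene cannot be told apart where exons overlap.

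RefSeq promoter windows (GRCm38.p6, from 250 bases before to 50 after the start of transcription) were found for 7 of the 9 members. The windows of Gja1, the member with the lowest relative level after I.P. dosing, and of the adjacent genes P2ry12 and P2ry13 are shown, because the levels of the neighboring pair are compared below. Each was searched on both strands for the AP-1 site TGAGTCA and for GAGGAA, the core of the PU.1 site, and matches on either strand are in capitals. AP-1 and PU.1 are transcription factors of macrophage activation and identity.
Gja1, chr10:56377050-56377349, plus strand: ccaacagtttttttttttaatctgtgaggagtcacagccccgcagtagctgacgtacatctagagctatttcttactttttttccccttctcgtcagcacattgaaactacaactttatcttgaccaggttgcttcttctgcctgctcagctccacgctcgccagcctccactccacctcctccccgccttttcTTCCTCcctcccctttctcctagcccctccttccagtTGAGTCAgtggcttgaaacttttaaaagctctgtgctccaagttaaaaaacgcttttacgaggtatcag
P2ry12, chr3:59262936-59263235, minus strand: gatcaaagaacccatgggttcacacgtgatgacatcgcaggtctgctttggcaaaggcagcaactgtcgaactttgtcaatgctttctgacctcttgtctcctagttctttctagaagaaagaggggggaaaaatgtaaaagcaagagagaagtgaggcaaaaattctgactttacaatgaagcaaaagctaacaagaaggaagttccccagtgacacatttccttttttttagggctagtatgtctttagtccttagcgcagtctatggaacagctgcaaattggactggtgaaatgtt
P2ry13, chr3:59210833-59211132, minus strand: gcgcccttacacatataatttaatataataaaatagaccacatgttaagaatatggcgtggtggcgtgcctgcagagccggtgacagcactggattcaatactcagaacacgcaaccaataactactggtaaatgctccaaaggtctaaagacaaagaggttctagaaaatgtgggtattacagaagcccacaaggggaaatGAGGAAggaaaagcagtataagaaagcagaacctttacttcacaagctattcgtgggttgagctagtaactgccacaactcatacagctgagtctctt
The Gja1 window held an AP-1 match that began 19 bases before the start and a PU.1 core match on the opposite strand 56 bases before it. The P2ry13 window held a PU.1 core match 48 bases before the start, and the P2ry12 window held neither. Of 32851 promoter windows of the same length, 5.20% held the AP-1 letters and 28.3% held the PU.1 core letters, so the core is a common string. The motifs do not overlap each other in these windows, and a match is only a string of letters, not a binding site.

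Libraries held between 14127506 and 17577466 counts each, and the S.C. mice stood apart. Of 9328 genes averaging 5 or more counts per 1000000 (CPM) over the 8 mice, 0.525% were at 0 in S.C. mouse 1 and 0.364% in S.C. mouse 2, against 0.0107% to 0.129% in the other 6 mice. The 11 macrophage markers summed to between 27360 and 41390 CPM in every mouse, and the 7 fibroblast markers to at most 1.23 CPM, with Pdgfra at 0 throughout. Lyz2 alone held 13320 to 25050 CPM, so the macrophage sum can hide differences in less abundant markers. Csf1r was at 353 and 1128 CPM in S.C. mouse 1 and 2, and Emr1 (Adgre1) at 360 and 1020 CPM. Itgam, Ptprc, Mertk and Lyz2 were also lower in S.C. mouse 1 than in mouse 2, whereas Cd68, Fcgr1, C1qa, C1qb and C1qc were higher. The 7 melanoma markers summed to 597 to 667 CPM in DMSO mice, 461 to 1671 CPM in I.P. mice, and 2986 and 700.3 CPM in S.C. mouse 1 and 2. The 9 neutrophil markers with a row summed to 185 to 193 CPM in DMSO mice, 133 to 185 CPM in I.P. mice and 293 to 498 CPM in S.C. mice. The lists for T and NK cells, B cells and dendritic cells each summed to at most 38.3 CPM in any mouse. In bulk samples, fewer cells of a type and less RNA per cell cannot be told apart, which holds for every level below.

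**Figure D1:**
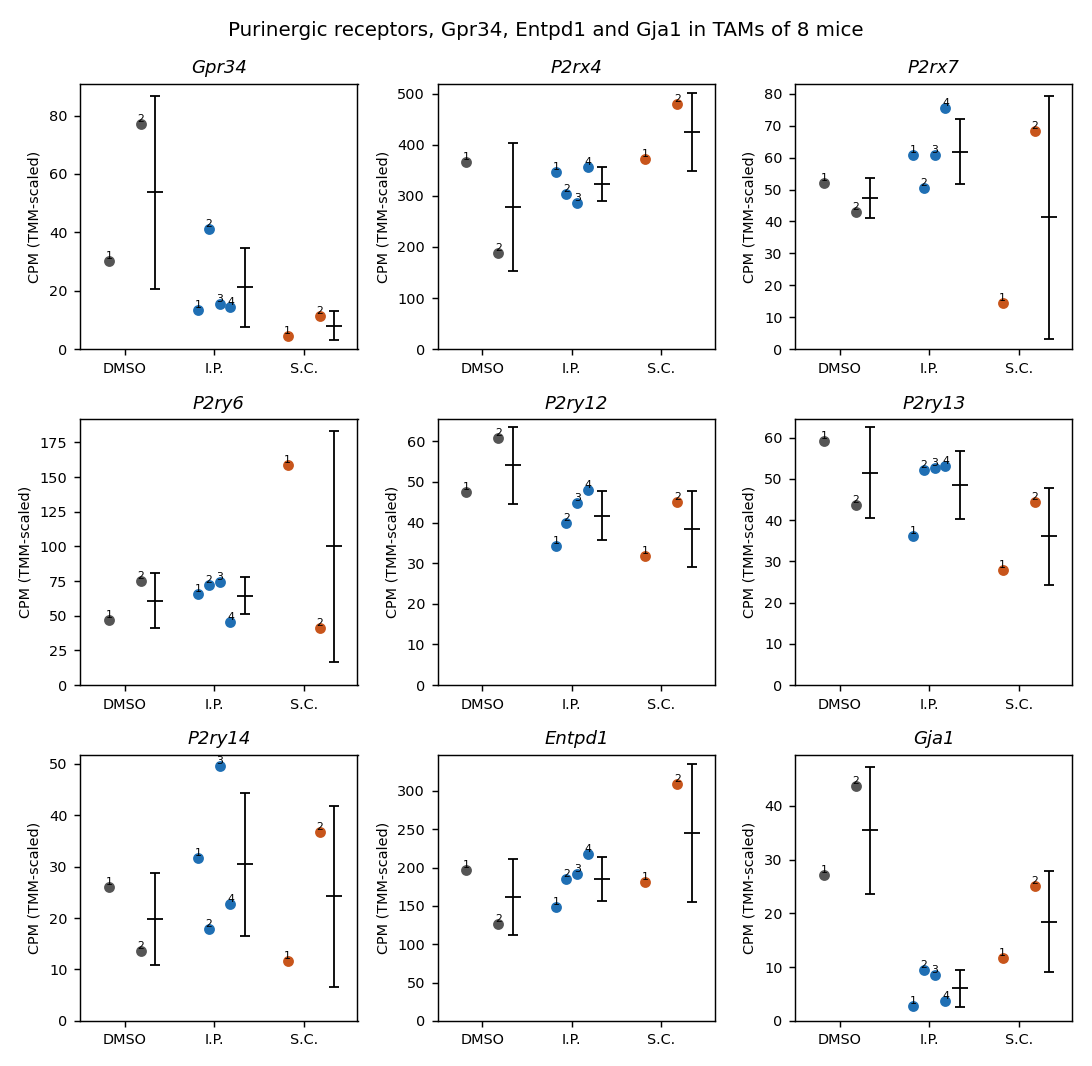
CPM scaled by the trimmed mean of M-values (TMM) for each of the 9 members (vertical axes, linear from 0) in each mouse, grouped as DMSO, I.P. and S.C. Points carry the mouse number and bars show the mean ± SD of the group. Gpr34 and Gja1 are the members whose treated means lie farthest below the DMSO mean, and P2rx7 and P2ry6 are the members in which the 2 S.C. mice lie far apart.

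Levels were expressed as TMM-scaled CPM. To rank members against each other, CPM was divided by the length in kilobases (kb) of the longest principal transcript. In DMSO mice P2rx4 was the most abundant per length, at 102.7 ± 46.3 CPM per kb (SD, n = 2), followed by Entpd1 at 38.3 ± 11.7 CPM per kb and P2ry6 at 31.3 ± 10.3 CPM per kb. Gpr34 followed at 25.7 ± 15.8 CPM per kb, P2ry12 at 23.1 ± 4.06 CPM per kb and P2ry13 at 20.4 ± 4.34 CPM per kb. Gja1 at 11.1 ± 3.69 CPM per kb, P2ry14 at 11.05 ± 4.95 CPM per kb and P2rx7 at 9.61 ± 1.27 CPM per kb closed the order. The ranges of mean ± SD separated P2rx4 from Entpd1 and P2ry13 from Gja1, and they overlapped between all other neighbors in this order. P2rx4, Entpd1 and P2ry6 kept the top places in both treated groups, with P2rx4 at 119.6 ± 12.3 CPM per kb in I.P. mice (SD, n = 4) and 157.5 ± 28.4 CPM per kb in S.C. mice (SD, n = 2). The lower end changed hands: Gja1 was lowest in I.P. mice at 1.92 ± 1.08 CPM per kb, and Gpr34 was lowest in S.C. mice at 3.82 ± 2.39 CPM per kb. This order depends on the length used. Per kb of all annotated exons, P2ry14 was lowest in DMSO mice (1.79 CPM per kb) and P2ry6 lay below Gpr34 and P2ry12, while in S.C. mice Gja1 (1.80) and P2ry14 (2.19) lay below Gpr34 (3.81). P2rx4 and Entpd1 were first and next to it in every group with either length, and Gja1 was lowest in I.P. mice with either.

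The study called a gene differentially expressed (DEG) when its unadjusted P was under 0.05 and its level differed 2-fold or more, and that criterion was counted here with the quasi-likelihood test of edgeR. By I.P., 2 of the 9 members met it, Gpr34 and Gja1, both lower. Of the 12174 genes tested, 1.53% were higher and 0.468% lower by this criterion. By S.C., Gpr34 alone met it, also lower, against 2.29% of 11680 genes higher and 2.77% lower. Between the routes Gja1 alone met it, higher in S.C. mice, against 2.41% of 12206 genes higher and 4.64% lower. Because the members were listed with these results known, nothing is read from their counts against the background. After Benjamini-Hochberg adjustment over all genes, edgeR called 0 genes in each comparison, members included. Unadjusted P was under 0.05 for 418, 632 and 1049 genes for I.P. against DMSO, S.C. against DMSO and S.C. against I.P. DESeq2 called 14, 120 and 320 genes after adjustment. All 9 members passed the filter on low counts in each comparison. The median log2 fold change of the 9 was 0.08 by I.P., -0.22 by S.C. and -0.12 between the routes, beside a median of all genes of 0.02 each time. An exact permutation test on a single gene could not go below a p of 0.133 with 4 mice against 2 or 0.333 with 2 against 2, so none was run. The comparisons of either route with DMSO share the same 2 DMSO mice.

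**Figure D2:**
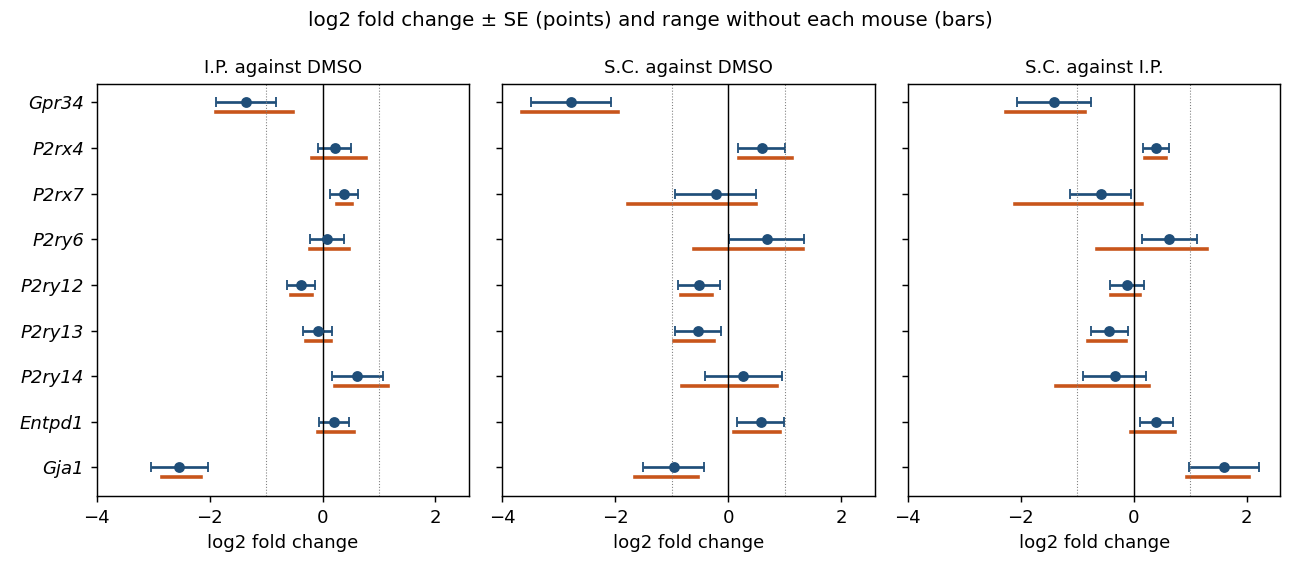
Fitted log2 fold change of each member (horizontal axes) for I.P. against DMSO, S.C. against DMSO and S.C. against I.P. Points with whiskers are the estimate ± SE, the lower bars span the estimates obtained by leaving out each mouse in turn, and dotted lines mark a 2-fold change. The estimate for Gja1 by I.P. ranged from -2.84 to -2.15 without each mouse, and that for P2rx7 by S.C. spanned 0, from -1.77 to 0.50.

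Gpr34, the lysophosphatidylserine receptor, was lower in most thiostrepton-treated mice than in DMSO mice, and the DMSO mice themselves differed by 2.54-fold. It stood at 30.3 and 77.1 CPM in DMSO mouse 1 and 2. The 4 I.P. mice held 13.3, 41.3, 15.4 and 14.5 CPM, and the S.C. mice 4.44 and 11.5 CPM. All treated mice except I.P. mouse 2, which lay between the DMSO values, were thus below both DMSO mice. A gap of S.C. below DMSO was shared by 17.2% of genes. Both S.C. mice also lay below all 4 I.P. mice, as did 10.5% of all genes tested between the routes. Group means were 53.7 ± 33.1 CPM with DMSO (SD, n = 2), 21.1 ± 13.5 CPM by I.P. (SD, n = 4) and 7.97 ± 4.995 CPM by S.C. (SD, n = 2). The fitted log2 fold change was -1.35 by I.P. (SE 0.53), -2.78 by S.C. (SE 0.71) and -1.41 for S.C. against I.P. (SE 0.65). Counts behind these values ran from 66 in S.C. mouse 1 to 1342 in DMSO mouse 2, so counting error is small beside the spread between mice.

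The size of the Gpr34 difference depended on DMSO mouse 2. Without it the I.P. log2 fold change was -0.52 and the S.C. value -1.96, and Gpr34 no longer met the criterion in either comparison. By I.P. it also failed the criterion without I.P. mouse 1, 3 or 4, at -1.18, -1.23 and -1.21, and it reached -1.90 without I.P. mouse 2. By S.C. it was -3.66 without S.C. mouse 2. The sign was negative in every such fit.

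F13a1, a gene of monocytes and of some macrophages, was the gene whose level over the 8 libraries was most like that of Gpr34 among 9328 genes (Pearson r of log2 CPM 0.928, Spearman rho 0.857). Fbxo21 (r 0.928, rho 0.976) and Ugt1a7c (r 0.927, rho 0.833) came next. F13a1 was at 1076 and 2097 CPM in DMSO mice, 462 to 836 CPM in I.P. mice, and 332 and 652 CPM in S.C. mice, so DMSO mouse 2 was highest for F13a1 as well as for Gpr34. The 6 monocyte markers, of which F13a1 supplies most, summed to 1145 and 2182 CPM in DMSO mice, 489.6 to 846 CPM in I.P. mice, and 429 and 779 CPM in S.C. mice. Their part in the Gpr34 values was not tested. Each such correlation shares its 8 libraries and their depth, and is given as a description.

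Gja1, which encodes connexin 43, was lower in every treated mouse than in either DMSO mouse, and lowest by I.P. DMSO mice held 27.1 and 43.8 CPM. The 4 I.P. mice held 2.68, 9.55, 8.52 and 3.68 CPM, and the S.C. mice 11.8 and 25.1 CPM. The 3 groups did not overlap at all, with S.C. mice between the others. Such a gap was seen in 6.83% of genes for lower I.P. than DMSO, 17.2% for lower S.C. than DMSO and 8.05% for higher S.C. than I.P. Group means were 35.4 ± 11.8 CPM with DMSO, 6.11 ± 3.43 CPM by I.P. and 18.5 ± 9.44 CPM by S.C. (SD, n = 2, 4 and 2). Fitted log2 fold changes were -2.54 by I.P. (SE 0.50), -0.97 by S.C. (SE 0.54) and 1.59 for S.C. against I.P. (SE 0.62).

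The I.P. difference met the criterion with any 1 mouse left out, at -2.84 to -2.15. Between the routes the difference was 0.94 without S.C. mouse 2, where it no longer met the criterion, and it failed the criterion also without I.P. mouse 1 (1.35) or I.P. mouse 4 (1.41). By S.C. it ranged from -1.65 without S.C. mouse 2, where it met the criterion, to -0.53 without S.C. mouse 1. The gene pattern most like Gja1 belonged to B3gnt7 (r 0.956, rho 0.976), Psmd12 (r 0.955, rho 0.952) and Snx6 (r 0.954, rho 0.905). Connexin 43 is also abundant in fibroblasts and endothelium. In these libraries the 6 endothelial markers summed to 1.14 to 9.10 CPM with Cldn5 at 0 throughout, and all 7 fibroblast markers averaged under 1 CPM. The platelet chemokine gene Ppbp was also lowest by I.P., at 37.9 and 123 CPM in DMSO mice, 11.7 to 19.1 CPM in I.P. mice and 49.4 and 69.0 CPM in S.C. mice. The 8 platelet and megakaryocyte markers summed to 40.8 and 127 CPM, 16.0 to 27.7 CPM, and 58.4 and 77.1 CPM in those groups. Ppbp supplied most of these sums, and 6 of the 8 markers averaged under 1 CPM. Gp9, Gp1bb and Tubb1 stayed below 0.3 CPM in each mouse, while Itgb3 reached 9.01 CPM in S.C. mouse 1, Itga2b 5.53 CPM in S.C. mouse 2 and Treml1 4.46 CPM in I.P. mouse 1. Of the 3 platelet markers that passed the filter for I.P. against DMSO, 2 were higher and 1, Ppbp, was lower. The part of these cells in the Gja1 values was not tested.

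The P2X channels, which admit calcium when ATP binds, were both present. P2rx4, the most abundant member, was at 366 and 189 CPM in DMSO mice, 346, 304, 286 and 356 CPM in I.P. mice, and 371 and 479.6 CPM in S.C. mice. The I.P. mice lay within the DMSO range, and both S.C. mice lay above all other mice. Being above both DMSO mice was shared by 17.1% of genes, and being above all I.P. mice by 8.05%. The log2 fold change of P2rx4 was 0.21 by I.P. (SE 0.29), 0.59 by S.C. (SE 0.41) and 0.40 between the routes (SE 0.24). Without DMSO mouse 2 the I.P. value was -0.18 and the S.C. value 0.19, against 0.77 and 1.14 without DMSO mouse 1, so the low DMSO mouse set the size and, by I.P., the sign.

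P2rx7, the ATP channel whose opening triggers the NLRP3 inflammasome, stood at 51.9 and 43.0 CPM in DMSO mice and at 60.85, 50.35, 60.9 and 75.4 CPM in I.P. mice. All I.P. values except that of mouse 2 exceeded both DMSO values. The S.C. mice held 14.5 and 68.2 CPM, the lowest of all 8 mice and the highest but 1. Its log2 fold change was 0.38 by I.P. (SE 0.25) and -0.22 by S.C. (SE 0.72). For S.C. it was -1.77 with S.C. mouse 1 alone and 0.50 with S.C. mouse 2 alone. The genes most like P2rx7 were Arl14ep (r 0.991, rho 0.929), Rapgef6 (r 0.988, rho 0.976) and Abr (r 0.984, rho 0.952). Each was lowest in S.C. mouse 1, as P2rx7 was, so these r values lean on that library. P2rx4, the neighbor of P2rx7 on the chromosome, had an r of 0.07 with it over the 8 libraries.

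P2ry6, the UDP receptor of macrophages and microglia, was split between the S.C. mice in the opposite way. It stood at 46.7 and 75.2 CPM in DMSO mice, 65.95, 72.5, 74.4 and 45.2 CPM in I.P. mice, and 159 and 41.1 CPM in S.C. mice. S.C. mouse 1 was the highest of all mice and S.C. mouse 2 the lowest. The log2 fold change was 0.08 by I.P. (SE 0.30) and 0.68 by S.C. (SE 0.66), or 1.32 with S.C. mouse 1 alone and -0.60 with S.C. mouse 2 alone. P2ry6 and P2rx7 had the strongest negative correlation among the pairs of members (r -0.89, rho -0.81). S.C. mouse 1 also had the highest melanoma marker sum and the most genes without a count, and the part of either in these values was not tested. Tgfb1 (r 0.979, rho 0.833), Snx25 (r 0.959, rho 0.929) and Gsk3a (r 0.957, rho 0.833) were the genes most like P2ry6. Each was highest in S.C. mouse 1, as P2ry6 was, so these r values lean on that library.

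P2ry12, P2ry13 and P2ry14, the Gi-coupled receptors of the chromosome 3 cluster, varied less than Gpr34 and Gja1 between DMSO and treated mice. P2ry12, an ADP receptor of platelets and a marker of resting microglia, was at 47.4 and 60.9 CPM in DMSO mice. The I.P. mice held 34.2, 39.8, 44.8 and 47.9 CPM, and the S.C. mice 31.8 and 45.1 CPM. All but I.P. mouse 4 lay below both DMSO mice, and a full gap below DMSO, as in the S.C. mice, was shared by 17.2% of genes. In the fit P2ry12 differed by -0.38 by I.P. (log2, SE 0.24) and by -0.52 after S.C. dosing (SE 0.37), and it was negative in each fit without 1 mouse.

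P2ry13, an ADP receptor whose start lies beside P2ry12, stood at 59.3 and 43.8 CPM in DMSO mice, 36.2, 52.2, 52.65 and 53.2 CPM in I.P. mice, and 27.8 and 44.3 CPM in S.C. mice. Only I.P. mouse 1 and S.C. mouse 1 lay outside the DMSO range, both below it. P2ry13 had a log2 fold change of -0.09 by I.P. (SE 0.26) and of -0.54 by S.C. (SE 0.41). P2ry14, the receptor for UDP-glucose, was at 26.1 and 13.6 CPM in DMSO mice, 31.7, 17.8, 49.5 and 22.8 CPM in I.P. mice, and 11.7 and 36.7 CPM in S.C. mice. These groups overlapped, and S.C. mouse 1 was again the lowest of all mice. The log2 fold change of P2ry14 was 0.61 by I.P. (SE 0.45) and 0.27 by S.C. (SE 0.68), with values of -0.82 and 0.86 for S.C. mouse 1 and 2 alone. Over the 8 libraries P2ry12 and P2ry13 had an r of 0.63 (rho 0.55), and P2ry14 had an r of 0.04 with P2ry12 and 0.44 with P2ry13. Both values for P2ry14 were below that of the P2ry12 and P2ry13 pair, a difference that was not tested.

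The genes most like these receptors were Isg20l2 (r 0.927), Osbpl9 (r 0.927) and Ccdc50 (r 0.916) for P2ry12. For P2ry13 they were Ddi2 (r 0.980), Sbno1 (r 0.980) and Rbm6 (r 0.966), and for P2ry14 they were Cr1l (r 0.935), Sirpb1b (r 0.933) and Slc31a2 (r 0.921).

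Entpd1, the gene of CD39, was at 197 and 126 CPM in DMSO mice, 148, 185, 191 and 218 CPM in I.P. mice, and 181 and 309 CPM in S.C. mice. No treated mouse lay below the DMSO range, and I.P. mouse 4 and S.C. mouse 2 lay above it. The log2 fold change was 0.20 by I.P. (SE 0.27) and 0.58 by S.C. (SE 0.41), with 0.11 without S.C. mouse 2. Among the members Entpd1 had its highest Pearson correlation with P2rx4 (r 0.815, rho 0.595) and its highest Spearman correlation with P2rx7 (r 0.292, rho 0.738). Its closest genes overall were Acer3 (r 0.976, rho 1.0), Itgb2 (r 0.967) and Arhgap25 (r 0.963). The genes closest to P2rx4 were Itgb5 (r 0.95), Shisa5 (r 0.946) and Nucb1 (r 0.934).

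**Figure D3:**
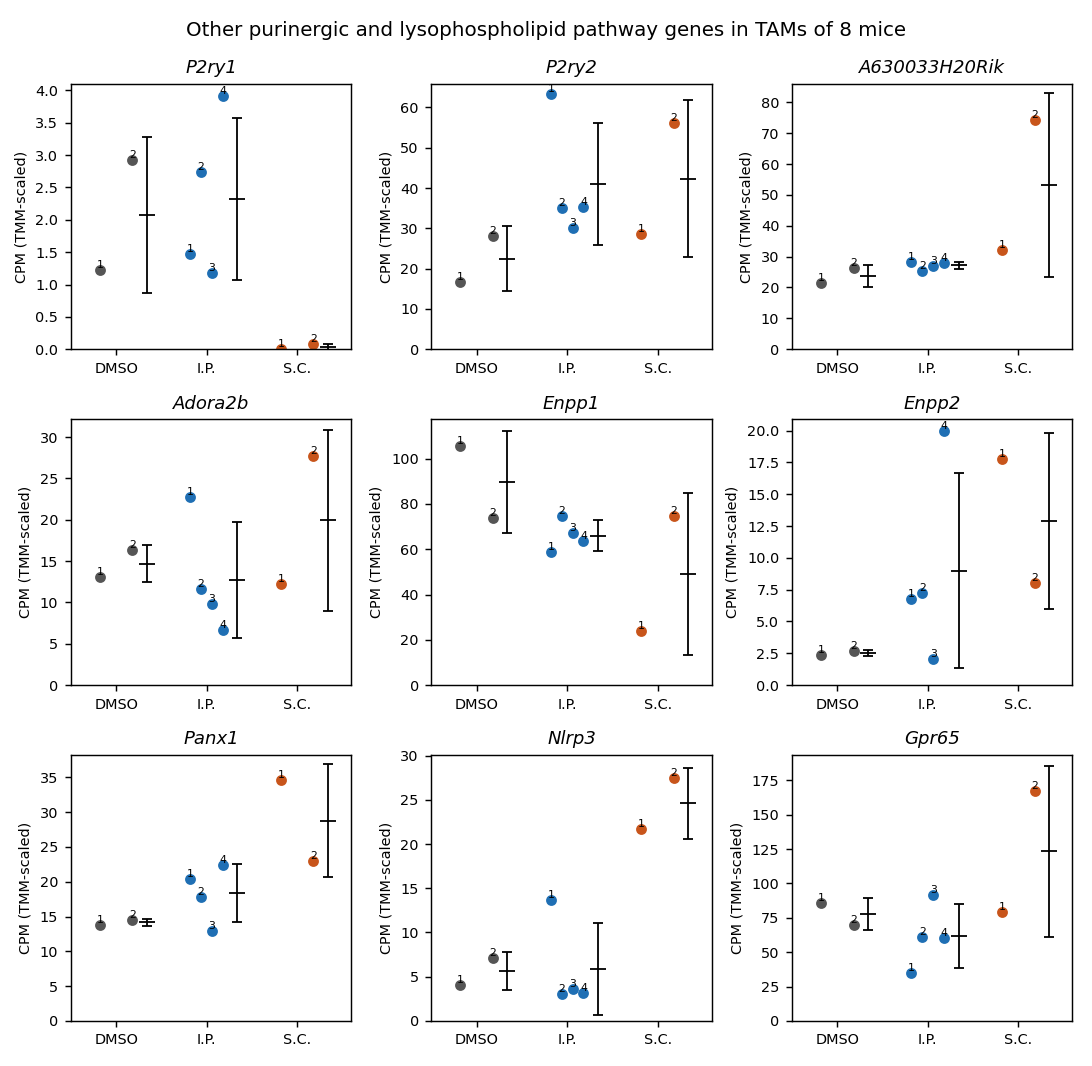
TMM-scaled CPM (vertical axes, linear from 0) in each mouse for 9 other genes of nucleotide, adenosine and lysophospholipid signaling, with the mean ± SD of each group beside the points. P2ry1 was at 0 and 0.07 CPM in the S.C. mice against 1.19 to 3.91 CPM in all other mice, and both S.C. mice were above all other mice for Nlrp3 and Panx1. A gap of S.C. above DMSO was shared by 17.1% of genes and of S.C. above I.P. by 8.05%. The shares for S.C. below were 17.2% and 10.5%.

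The members were set against 109 other genes in 12 lists around the same pathway, chosen by function with earlier results of these data known. By I.P., 69 passed the filter, and 1 was higher and 1 lower by the DEG criterion, against 1.53% and 0.468% of all genes. By S.C., 3 of 64 were higher and 1 lower, against 2.29% and 2.77%, and between the routes 4 of 71 were higher and 3 lower, against 2.41% and 4.64%. With edgeR, 0 of them passed an adjusted p of 0.05 in any of the 3 comparisons, while 5, 4 and 9 had an unadjusted P under 0.05. With DESeq2, 0, 1 (Il1b) and 2 (P2ry1 and Gpr171) passed after adjustment.

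Among the other P2X and P2Y receptor genes, the 5 remaining P2X genes were at or below 2.48 CPM in every mouse. P2rx4 and P2rx7 thus made up nearly all P2X reads. The list of other P2Y receptors held 5 genes, of which 3 passed the filter. P2ry2, which senses ATP and UTP and is the neighbor of P2ry6, stood at 16.8 and 28.1 CPM in DMSO mice against 30.1 to 63.5 CPM in I.P. mice and 28.6 and 56.1 CPM in S.C. mice. All treated mice lay above both DMSO mice, as did 7.32% of genes after I.P. dosing and 17.1% after S.C. dosing. The log2 fold change of P2ry2 was 0.86 by I.P. (SE 0.37, edgeR adjusted p = 0.98). P2ry6 showed no such gap. P2ry1, the Gq-coupled ADP receptor, had 69 reads in the DMSO mice and 1 in the S.C. mice, a depth-scaled ratio of 0.0144 with an exact 95% counting interval of 0.000359 to 0.0829. The test across mice gave an edgeR adjusted p of 0.747 for S.C. against DMSO and 0.315 between the routes. A630033H20Rik, matched to P2ry10b by its RefSeq synonym, was listed here by its P2Y name and not by its ligand. It was at 32.0 and 74.2 CPM in S.C. mice against 25.5 to 28.4 CPM in I.P. mice (log2 fold change 0.97, SE 0.36, edgeR adjusted p = 0.497). Of 4 adenosine receptor genes, Adora2b was the main one, at 6.71 to 27.7 CPM over the 8 mice, and none met the criterion.

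Entpd1 was the most abundant ectonucleotidase gene per length, and Enpp1, whose product also cleaves ATP, came next at 13.3 CPM per kb in DMSO mice, 9.75 CPM per kb in I.P. mice and 7.26 CPM per kb in S.C. mice. Entpd1 was at 38.3, 44.0 and 58.0 CPM per kb in the same groups. Of the 8 other ectonucleotidase genes, 5 averaged under 1 CPM, and Entpd2, Entpd3 and Entpd8 did not exceed 2.68 CPM in any mouse. Nt5e, the gene of CD73 that turns AMP into adenosine, was at 0.07 and 2.41 CPM in DMSO mice, 0.38 to 3.09 CPM in I.P. mice, and 0.07 and 0.22 CPM in S.C. mice. It was thus low in every library beside Entpd1, and between the routes its log2 fold change was -3.29 (SE 1.38, edgeR adjusted p = 0.563). Enpp2, the gene of autotaxin, which makes lysophosphatidic acid, was at 2.37 and 2.70 CPM in DMSO mice against 17.8 and 8.01 CPM in S.C. mice (log2 fold change 2.31, SE 0.72, edgeR adjusted p = 0.759). By I.P. it ran from 2.03 to 19.95 CPM and overlapped DMSO. Of the 10 genes of adenosine handling, the lysosomal nucleoside transporter gene Slc29a3 alone had an unadjusted P under 0.05, by I.P. (log2 fold change 0.50, SE 0.22, edgeR adjusted p = 0.98). None of the 4 intracellular Entpd genes met the criterion.

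Gja1 was the most abundant connexin gene per length in DMSO mice, at 11.1 CPM per kb against 1.16 CPM per kb for Gjc3, the next. In I.P. mice the order turned, with Gja1 at 1.92 CPM per kb and Gjc3 at 2.15 CPM per kb, a difference that was not tested. In S.C. mice Gja1 was at 5.80 CPM per kb and Gjb2, the next, at 2.80 CPM per kb. Per kb of all annotated exons that last order turned, with 1.80 CPM per kb for Gja1 and 2.80 CPM per kb for Gjb2, whereas the orders in DMSO and I.P. mice did not. Of the 19 other connexin genes, 17 averaged under 1 CPM over the 8 mice. Gjc3 averaged more than that, at 2.91 to 14.6 CPM, as did Gjb2, which was at 12.98 CPM in S.C. mouse 1 and at most 2.39 CPM elsewhere. Gjc1 met the criterion between the routes at a very low level, with 89 reads over the I.P. group and 3 over the S.C. group (edgeR adjusted p = 0.532). None of the 8 genes of ATP release met the criterion. Panx1, a channel for ATP, was at 13.8 and 14.5 CPM in DMSO mice and 34.6 and 23.0 CPM in S.C. mice (log2 fold change 0.997, SE 0.44, edgeR adjusted p = 0.94).

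Downstream of P2rx7, the inflammasome list held 9 genes, and 2 of them met the criterion by S.C., both higher. Over all genes tested by S.C., 2.29% were higher and 2.77% lower by this criterion. By I.P., 0 of the 9 met it, and between the routes Nlrp3 alone did. The sensor gene Nlrp3 was at 4.07 and 7.12 CPM in DMSO mice and 21.7 and 27.5 CPM in S.C. mice (log2 fold change 2.11, SE 0.55, edgeR adjusted p = 0.747). Il1b, the cytokine that the inflammasome matures, was at 6.92 and 8.96 CPM in DMSO mice and 252 and 381 CPM in S.C. mice (log2 fold change 5.29, SE 0.43, edgeR adjusted p = 0.151). Of the neutrophil markers, all 9 with a row were higher by S.C., and S100a8, S100a9, Camp, Ngp and Ltf met the criterion. Ngp, a granule protein gene, was at 0.75 and 0.11 CPM in DMSO mice and 4.44 and 60.3 CPM in S.C. mice. The part of such cells in the Nlrp3 and Il1b values was not tested. P2rx7 itself did not share this pattern, since it was at 14.5 and 68.2 CPM in the same S.C. mice. Pycard, Casp1 and Gsdmd, which encode the adaptor, protease and pore of the pathway, were present in all mice and did not meet the criterion in any comparison.

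Of 13 genes for other lysophospholipid and proton receptors and for lysophosphatidylserine enzymes, 11 passed the filter by I.P. and 10 by S.C. None of these met the criterion against DMSO by either route. By I.P., 1.53% of all genes tested were higher and 0.468% lower by this criterion, and by S.C. 2.29% and 2.77%. At these shares few or no calls are expected among so few genes, so their absence does not set Gpr34 apart. Gpr34 met the criterion by both routes but was listed with its result known. Of the 13 genes, Abhd12, which degrades lysophosphatidylserine, was the most abundant at 384 to 514 CPM over the 8 mice. Gpr174, a related lysophosphatidylserine receptor, did not exceed 0.22 CPM. The P2Y genes were not part of this list. Between the routes Gpr132 met the criterion at a low level, 0.06 to 0.70 CPM by I.P. and 4.17 and 1.68 CPM by S.C. (edgeR adjusted p = 0.528). Gpr65, a proton-sensing receptor, was at 34.9 to 91.4 CPM by I.P. and 79.4 and 167.5 CPM by S.C. (log2 fold change 0.996, SE 0.42, edgeR adjusted p = 0.569).

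The genes around the members were listed as well. Med12l, the host gene of the P2ry12 cluster, met the criterion by I.P. in the direction opposite to P2ry12, at 1.49 and 3.16 CPM in DMSO mice and 4.91 to 7.70 CPM in I.P. mice (log2 fold change 1.48, SE 0.48, edgeR adjusted p = 0.98). It had no read in S.C. mouse 1 and 9.39 CPM in S.C. mouse 2. Gpr171, beside P2ry14, was at 0.73 to 3.50 CPM by I.P. and 11.1 and 16.8 CPM by S.C. (log2 fold change 3.11, SE 0.73, edgeR adjusted p = 0.277). Gpr171 is also a gene of lymphocytes, and the 9 T and NK cell markers summed to 1.16 to 6.72 CPM in I.P. mice against 25.6 and 38.3 CPM in S.C. mice. All 6 that passed the filter were higher by S.C., and Cd3g, Gzma and Nkg7 met the criterion. Their part in the Gpr171 values was not tested. Cask, the host gene of Gpr34, was at 12.7 to 20.9 CPM in DMSO and I.P. mice, and at 4.98 and 14.6 CPM in S.C. mice, and did not meet the criterion. Its log2 fold change was 0.25 by I.P. (edgeR adjusted p = 0.98) and -0.56 by S.C. (edgeR adjusted p = 1.0), and whether Cask reads contribute to the Gpr34 counts was not tested.

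P2ry12, P2ry13 and Gpr34 are often named together as genes of resting microglia, so 14 other genes of that kind were counted. By I.P., Fcrls alone met the criterion, at 337 and 441 CPM in DMSO mice and 58.5 to 313 CPM in I.P. mice (log2 fold change -1.35, SE 0.56, edgeR adjusted p = 0.98). Mertk, a receptor for the uptake of dying cells, was higher by I.P. with an unadjusted P under 0.05 but less than 2-fold (log2 fold change 0.96, SE 0.28, edgeR adjusted p = 0.98). By S.C. none met the criterion, and between the routes Olfml3 did, higher by S.C. (log2 fold change 1.35, SE 0.48, edgeR adjusted p = 0.484). The shares over all genes were 2.29% higher and 2.77% lower by S.C., and 2.41% and 4.64% between the routes. Of the 12 listed genes that passed the filter, 6 were higher and 6 lower by I.P., and 9 were higher and 3 lower by S.C. The 3 lower by S.C. were Fcrls (log2 fold change -0.73), Gas6 (-0.85) and Csf1r (-0.04). Gpr34, P2ry12 and P2ry13 were all lower by S.C. as well. Sall1, which marks microglia, had no read in any mouse.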

How the data were processed

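The count table deposited by the authors holds raw counts per gene and library. Per the study's methods, reads were aligned to mm10 with bowtie2 and counted with RSEM, while the submitters' processing notes name TopHat2 and edgeR. The gene annotation and strand setting are not given in the sources used here. Values were whole numbers and were used as deposited. All 8 columns were matched to mice by the labels, as 2 DMSO, 4 I.P. and 2 S.C. mice.

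Counts were fitted per pair of groups with edgeR 4.0.16 in R 4.3.3 (TMM, filterByExpr with a minimum count of 10, glmQLFit and glmQLFTest, two-sided, Benjamini-Hochberg over all genes tested). CPM used TMM library sizes (factors 0.931 to 1.074), and correlations used log2 CPM with a prior count of 2. A total of 3 counts corresponded to 0.171 to 0.212 CPM by library size alone, before TMM scaling. Intervals on counts cover counting error only. Of 23413 symbols, 93.0% matched GENCODE vM21, which gave positions and transcript lengths.

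The members and lists were chosen with earlier results of these data known. Named were all members, pathway genes with an unadjusted P under 0.05 or among the 3 highest of their list, and the 3 genes most like each member. Genes given beyond that rule (such as Ppbp, F13a1 as a marker, Gpr174, Sall1, Cx3cr1, Gas6, Casp1, Gsdmd, Entpd2, Entpd3 and Entpd8) were chosen for their role after their values were seen. Alternatives were no filter, a filter of 1 CPM in 2 libraries, RLE size factors, library size only, DESeq2 1.42.0, all 3 groups in 1 fit, a replicate block and leaving out each mouse.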

Additional observations from a re-analysis of the deposited data

Results flagged for a closer look

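Within the 4 I.P. mice, 9 of 52 genes examined had a mouse set apart from the others. The gap was then more than 0.829 of the range of the group, a cutoff passed by about 1 in 20 sets of independent, normally distributed values. The genes here share the same 4 mice and were listed with earlier results known. The share over all genes was not computed, so the count is only a description. Among the members, the genes with such a gap were Gpr34 and P2ry13. For Gpr34, I.P. mouse 2 was at 41.3 CPM against 13.3 to 15.4 CPM in the others (gap 0.925 of the range). For P2ry13, I.P. mouse 1 was at 36.2 CPM against 52.2 to 53.2 CPM (gap 0.943).

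I.P. mouse 1 was the high one for Nlrp3, at 13.7 CPM against 3.04 to 3.61 CPM (gap 0.946), and for Il1b, at 228 CPM against 0.992 to 7.73 CPM (gap 0.970). It was also high for P2ry2, at 63.5 CPM against 30.1 to 35.4 CPM (gap 0.842), and for Abhd16a, at 103 CPM against 79.7 to 82.2 CPM (gap 0.897). P2rx7 was not set apart in that mouse. I.P. mouse 4 was high for Entpd5, at 27.6 CPM against 15.1 to 16.4 CPM (gap 0.901), and for Ano6, at 185 CPM against 95.5 to 106 CPM (gap 0.879). Of the 4 I.P. mice, P2rx3 had reads in mouse 2 alone, at 0.365 CPM (gap 1.0), which is a handful of reads.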

How the results depend on the processing

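Every log2 fold change of a member stayed within its SE under each alternative other than leaving out a mouse, in all 3 comparisons. Calls changed more. For I.P. against DMSO, the DEGs (243) were 378 with DESeq2 and 160 with all 3 groups in 1 fit, and 14 genes passed adjustment with DESeq2 (0 with edgeR). The pathway genes called (2) were 4 without a filter and 1 in the joint fit. For S.C. against DMSO, genes past adjustment (0) were 10 without a filter, 120 with DESeq2 and 4 in the joint fit, and the pathway genes called (4) were 8 without a filter and 8 with DESeq2. For S.C. against I.P., 320 genes passed adjustment with DESeq2 and 2 in the joint fit. There the members called (1) were 2 without a filter, 2 with library size only and 2 with DESeq2, because Gpr34 then met the criterion.

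Leaving out 1 mouse gave 116 to 361 DEGs by I.P. (0 to 0 past adjustment, 1 to 2 members, 0 to 5 pathway genes). By S.C. it gave 113 to 3432 DEGs (591 with all mice), with 0 to 2407 past adjustment, 0 to 4 members and 2 to 24 pathway genes. Between the routes it gave 632 to 2115 (860 with all mice), with 0 to 138 past adjustment, 0 to 3 members and 4 to 16 pathway genes. In the comparisons of S.C. mice the highest counts of DEGs came when a single S.C. mouse remained, which is then assumed to vary like the other group.

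Deviations of same-numbered mice from their group means were only weakly correlated (r -0.101 and 0.0354 for I.P. and DMSO, -0.129 for S.C. and DMSO, 0.0707 and -0.00814 for S.C. and I.P., over 12378 genes). For S.C. and DMSO both numbers give the same r by construction, because the deviations of 2 mice from their mean mirror each other. These values show no pairing by number but cannot exclude one. With the replicate block, 291, 429 and 389 DEGs were called and 0, 19 and 7 genes passed adjustment for I.P. against DMSO, S.C. against DMSO and S.C. against I.P., with 1, 4 and 6 pathway genes. In the block Gja1 was lost and Gpr34 gained between the routes. Numbers crossed, chosen after seeing the data, gave 475 DEGs and 2 genes past adjustment by S.C. The mice of the block fitted without pairing, also added later, gave 1 member and 4 pathway genes by I.P., and 395 DEGs, 0 members and 4 pathway genes between the routes (7 with all mice). The cause of these changes was not tested.

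With 2 mice in a group and a DMSO pair that differed 2.54-fold for Gpr34, precision is set by the spread between mice and not by depth. Ranking by Spearman in place of Pearson correlation kept 1 of the 3 most alike genes for Gpr34, P2ry12, P2ry14, Entpd1 and Gja1, and 0 for the other members.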
